A study of Mus musculus with 56 samples.

Results

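The genes described here are the 4 mouse Fc gamma receptor genes Fcgr1, Fcgr2b, Fcgr3 and Fcgr4 together with Fcer1g, which encodes the signaling chain shared by the activating receptors. They are 5 of the 20352 gene names that the deposited peak lists use, and a peak was counted for a gene where the authors' annotation named that gene as the nearest. Across 56 lists from bone marrow-derived macrophages (BMDMs), 1193 of 1610519 peaks carried 1 of these names. Fcgr2b had 362 peaks, Fcgr4 287, Fcgr3 230, Fcgr1 222 and Fcer1g 92. All cells were wild-type C57BL/6, from mice of 8 to 12 weeks, and bone marrow was differentiated for 6 days with L929 supernatant as the source of M-CSF.

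In the first experiment, untreated BMDMs were compared with BMDMs given IL-4 at 20 ng/ml for 1 hr (32 lists: PU.1, p300, HDAC1 to HDAC3, H3K27Ac, and RNA polymerase II phosphorylated on serine 5 or 2, RNAPII-pS5 and RNAPII-pS2, with 2 replicates per condition). In the second, 1 group of cells (ctrl/ctrl) received neither agent, another (ctrl/LPS) LPS at 100 ng/ml for 1 hr (the unit of the labels, where the methods give nM), a further group (IL-4 PT/ctrl) IL-4 at 20 ng/ml for 24 hr, and the last (IL-4 PT/LPS) had 24 hr of IL-4 and then the LPS dose, and RNAPII-pS5, RNAPII-pS2 and the NF-kB subunit p65 were mapped (24 lists, 2 replicates per condition). The lists give a score per called peak and no read counts, so sequencing depth is unknown. For every antibody except H3K27Ac the score is taken to be the -log10 p or q value of MACS2, and for H3K27Ac it is the normalized tag count of regions called by HOMER. A score is therefore a measure of evidence for a peak that also depends on depth, and "none" below means that no peak was called.

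Fc gamma receptors bind the constant part of IgG and couple antibody-coated particles to phagocytosis and cytokine release. Fcgr1 encodes FcγRI (CD64), the high-affinity receptor, and Fcgr3 and Fcgr4 encode the activating receptors FcγRIII and FcγRIV. All 3 signal through the FcRγ chain encoded by Fcer1g, whose ITAM recruits the kinase Syk after phosphorylation by Src-family kinases such as Lyn. Fcgr2b encodes FcγRIIb, the only inhibitory member, whose ITIM recruits the inositol phosphatase SHIP1, the product of Inpp5d. The balance of activating receptors and FcγRIIb sets the threshold at which immune complexes activate a macrophage.

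In mm10, Fcgr2b, Fcgr4, Fcgr3 and Fcer1g lie in this order on chromosome 1, with start sites at 170976071 (minus strand), 171018926 (plus), 171059403 (minus) and 171234349 (minus). Fcgr1 lies on chromosome 3 with its start site at 96293969 (minus). Positions below are in kb from the start site, negative upstream. Many peaks were intergenic, from 0% for Fcer1g to 70.0% for Fcgr4, and between neighboring receptor genes the nearest name need not be the regulated gene. Fcgr2b, Fcgr3 and Fcgr4 are related in sequence: 25 of the 257 regions on chromosome 1 had over 5% of their 50-base words elsewhere in the cluster, and the highest share was 23.5%, so some reads could have been assigned to a neighbor.

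The sequences at 4 sites to which several of the results below refer are shown first, followed by the promoters of Fcgr3 and Fcgr4. Each is read 5′ to 3′ on the minus strand of GRCm38 (Fcgr4 promoter: plus strand), with letters that match a searched motif in capitals. The motifs, searched on both strands, were GAGGAA (PU.1), TTC and GAA 4 bases apart (STAT6), TTC and GAA 3 bases apart (GAS, bound by other STATs), GGG and TTCC 3 bases apart (NF-kB), TGANTCA (AP-1) and TTGCNNAA (C/EBP). The first is the intergenic Fcgr2b -11.0 kb site, at chr1:170986924-170987223, with 2 STAT6 matches and 1 PU.1 match.
Fcgr2b -11.0 kb: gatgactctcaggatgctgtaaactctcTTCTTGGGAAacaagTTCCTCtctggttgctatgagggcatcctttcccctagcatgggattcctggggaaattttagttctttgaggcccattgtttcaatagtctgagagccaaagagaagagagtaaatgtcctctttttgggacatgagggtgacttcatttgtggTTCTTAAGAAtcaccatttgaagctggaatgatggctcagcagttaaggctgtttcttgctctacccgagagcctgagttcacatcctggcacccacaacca
The second lies past the 3′ end of Fcgr3, at chr1:171046767-171047066, with 1 STAT6 and 1 PU.1 match.
Fcgr3 +12.5 kb: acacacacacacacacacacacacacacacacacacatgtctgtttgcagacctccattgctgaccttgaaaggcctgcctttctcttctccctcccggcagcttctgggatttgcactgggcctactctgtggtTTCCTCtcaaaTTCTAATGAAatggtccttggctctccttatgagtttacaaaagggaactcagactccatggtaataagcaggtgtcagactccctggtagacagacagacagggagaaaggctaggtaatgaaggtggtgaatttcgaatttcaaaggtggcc
Upstream of Fcgr1, the sites at chr3:96300724-96301023 and chr3:96302701-96303000 behaved differently from each other. Both hold 1 PU.1 match, and only the distal of the pair holds AP-1 matches, 3 in number.
Fcgr1 -6.9 kb: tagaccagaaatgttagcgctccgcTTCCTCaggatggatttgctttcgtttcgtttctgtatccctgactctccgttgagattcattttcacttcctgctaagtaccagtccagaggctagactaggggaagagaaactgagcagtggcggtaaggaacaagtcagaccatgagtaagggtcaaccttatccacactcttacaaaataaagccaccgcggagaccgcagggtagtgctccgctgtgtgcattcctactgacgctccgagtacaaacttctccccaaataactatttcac
Fcgr1 -8.9 kb: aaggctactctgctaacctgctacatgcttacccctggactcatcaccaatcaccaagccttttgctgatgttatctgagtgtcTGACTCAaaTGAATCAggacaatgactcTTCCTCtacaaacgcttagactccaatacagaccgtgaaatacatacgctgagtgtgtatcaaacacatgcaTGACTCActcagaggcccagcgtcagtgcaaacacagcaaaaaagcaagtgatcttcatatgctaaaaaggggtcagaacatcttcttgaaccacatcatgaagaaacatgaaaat
The RefSeq promoters of Fcgr3 (chr1:171059354-171059653) and Fcgr4 (chr1:171018676-171018975) are given because p65 peaks on them changed. The Fcgr3 promoter holds 1 NF-kB, 1 C/EBP and 1 PU.1 match, and the Fcgr4 promoter 1 PU.1 match.
Fcgr3 promoter: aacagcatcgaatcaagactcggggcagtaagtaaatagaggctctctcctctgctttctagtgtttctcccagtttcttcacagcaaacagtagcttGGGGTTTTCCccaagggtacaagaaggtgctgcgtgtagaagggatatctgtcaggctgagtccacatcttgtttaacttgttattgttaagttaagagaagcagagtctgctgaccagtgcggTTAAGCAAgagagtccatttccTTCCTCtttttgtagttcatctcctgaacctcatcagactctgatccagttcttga
Fcgr4 promoter: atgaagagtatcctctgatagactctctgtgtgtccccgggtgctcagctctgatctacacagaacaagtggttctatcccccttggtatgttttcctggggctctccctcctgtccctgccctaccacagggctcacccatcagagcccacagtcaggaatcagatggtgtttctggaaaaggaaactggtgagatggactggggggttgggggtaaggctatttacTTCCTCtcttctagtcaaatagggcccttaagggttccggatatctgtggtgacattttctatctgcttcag
In 300-base windows of 67225 p300 regions, 49.3% held GAGGAA, 13.1% the STAT6 letters, 20.5% the AP-1 letters and 6.03% the NF-kB letters. In 27025 promoters of the same length the shares were 28.3%, 6.99%, 7.93% and 5.52%. A match describes letters only and not bound protein.

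The labels were checked against known genes. All 6 macrophage markers had RNAPII-pS5 peaks in both untreated and both ctrl/ctrl lists, with a summed score of 427 to 769, and of the 4 mast cell markers Ms4a2 alone had peaks in both lists of each group (whole list 35.4 to 103). Of the other lists, 0 of 4 B cell, 1 of 4 T cell (Cd4), 1 to 2 of 4 neutrophil, 2 of 3 dendritic cell (Flt3, Xcr1) and 1 of 3 erythroid markers (Klf1) had peaks in both lists of a group. In H3K27Ac of untreated cells, 4 of 6 macrophage markers had peaks in both lists and Cd68 and Lyz2 had none, and of the 4 B cell markers Ms4a1 had peaks in both, with a summed score of 849.8 to 867 for the list. There, Cd4, S100a8, Klf1, Flt3 and Xcr1 also had peaks in both lists and no mast cell marker had, and the part of other cells in the results was not tested. Socs1, a direct STAT6 target, rose in summed RNAPII-pS5 score from 91.5 and 57.2 without IL-4 to 261 and 224 with it. In the 1 hr RNAPII-pS2 lists it went the other way: 117 and 144 in the libraries labeled untreated against 4.28 and none in those labeled IL-4, and the peak names inside these 4 lists carry the opposite treatment to their labels. They are called "the libraries labeled untreated" and "labeled IL-4" here, and no direction for IL-4 is drawn from them. Mean RNAPII-pS5 sums in ctrl/ctrl and IL-4 PT/ctrl cells were 9.55 and 58.2 for Socs1 (limma, adjusted p = 0.00583). For Il1b, an LPS-induced gene, they were 9.37 and 15.9 (adjusted p = 0.221), and for the LPS-induced Tnf 43.4 and 87.2 (adjusted p = 0.0904). Those of Nfkbia and Cxcl2 were not called either. With LPS alone, RNAPII-pS5 sums rose for Il1b, Tnf and Cxcl2 (limma, adjusted p = 0.00327, 0.0182 and 0.0149), and Nfkbia was not called (0.323). With IL-4 PT, RNAPII-pS2 sums rose for Hbegf (limma, adjusted p = 0.0239) and the LPS-induced Cxcl2 (0.0388). Mean RNAPII-pS2 sums in ctrl/ctrl and IL-4 PT/ctrl cells were 37.6 and 59.6 for Il1b and 73.6 and 119 for Nfkbia. Neither was called (limma, adjusted p = 0.0802 and 0.0611), nor was Tnf. Klf4, Edn1 and Cish missed the threshold of 0.05. The paper reports lower basal RNAPII binding at Il1b after IL-4 pretreatment. The cause of this difference was not tested. The untreated p300 replicate 1 had 44787 peaks against 66710 to 69360 in the other p300 lists. The labels and the paper's methods text give 1 antibody catalog number for HDAC3 and H3K27Ac, while the paper's list of reagents gives different ones. Lists held 8440 to 71027 peaks in all, of which 7 to 46 were assigned to the Fc receptor genes.

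Which Fc receptor genes responded to 1 hr of IL-4 was asked first. Fcgr2b had the largest rise in summed H3K27Ac score among the genes measured in every list, and no H3K27Ac or p300 region of Fcgr1 or Fcer1g was called. Among these genes Fcgr2b also had the largest rise in raw PU.1 and p300 sums, but these sums were neither centred nor tested. Untreated p300 replicate 1 had fewer peaks than the other p300 lists, and no p300 region of these genes was called without centring. PU.1 was called at no region of any gene. The plot of summed scores in the 1 hr experiment shows each list.

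**Figure D1:**
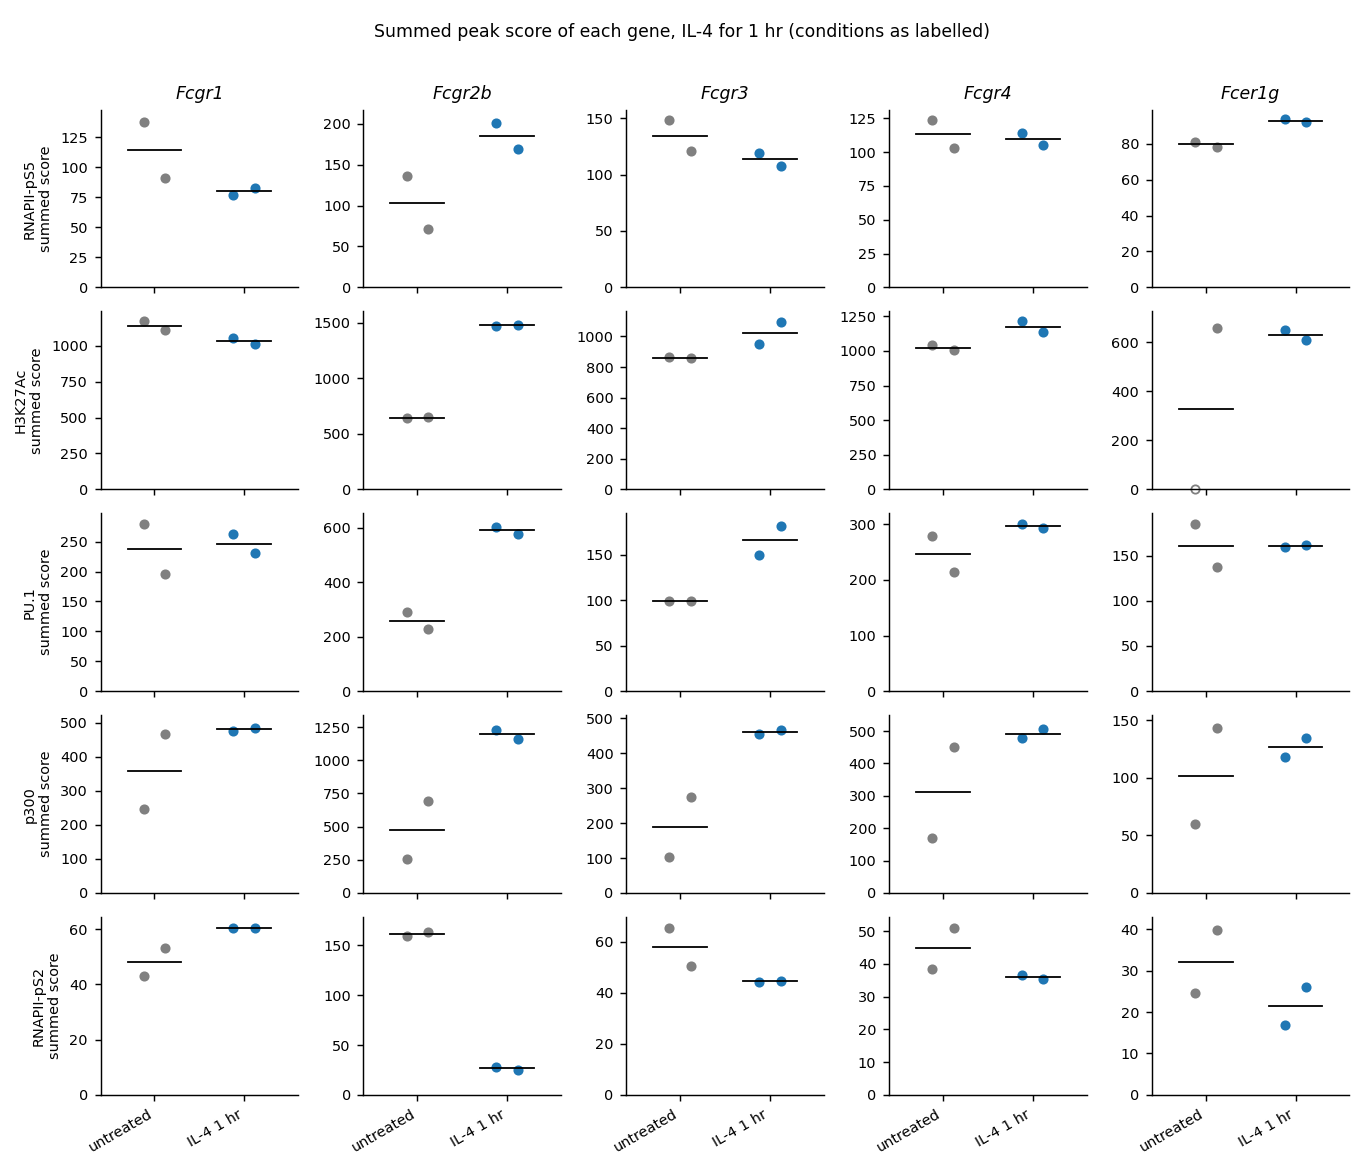
Summed peak score of each Fc receptor gene (columns) for 5 antibodies (rows) in the 1 hr experiment; points are the 2 replicates per labeled condition, lines their means, and open circles at 0 lists without a peak, which enter the mean as 0. Fcgr2b H3K27Ac lies at 644 and 647 in untreated and 1472 and 1483 in IL-4-treated cells, and its RNAPII-pS2 scores run the other way in libraries whose labels conflict with their IL-4 marker genes.

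For H3K27Ac, the histone mark of active enhancers and promoters, the Fcgr2b sum stood at 644 and 647 without IL-4 and at 1472 and 1483 with it. The groups did not overlap, and the log2 change was 1.20 ± 0.05 (SE, n = 2 per group, limma, adjusted p = 0.00235), where 32.9% of 13035 genes were called. Fcgr2b was the only 1 of the 5 called. Fcgr1 had 1173 and 1111 before and 1052 and 1010 after IL-4 (adjusted p = 0.149). Fcgr3 and Fcgr4 had sums of 865 and 859 and of 1040 and 1006 in untreated cells and 951 and 1096 and 1214 and 1138 with IL-4 (adjusted p = 0.13 and 0.0776). Fcer1g had 1 H3K27Ac region, missing in untreated replicate 1 and scoring 658, 651 and 611 in the other lists, so the untreated level is not settled. These are scores over a whole culture, in which fewer cells carrying a mark and less of it per cell cannot be told apart.

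Of the 15 H3K27Ac regions of these genes, 8 were higher and 1 lower with IL-4, 60.0%, against 40.4% called of all 28929 regions. A region was tested if 2 lists had a peak in it, so one with peaks in 1 group alone passed only through that group, and counts of calls here and below are descriptions. For the H3K27Ac regions of these genes the median change was 0.38, against -0.02 for all regions. Fcgr2b accounted for 4 of the higher regions. The region over its 3′ end (+15.9 kb, chr1:170959675-170960677) had none in untreated cells and scores of 206 and 221 with IL-4. In intron 3 (+8.2 kb) the scores rose from 88.1 and 90.9 to 387 and 396, a log2 change of 2.18 ± 0.06 (limma, adjusted p = 4.19e-04). Over exon 1 and the start site they rose from 143 and 154 to 380.1 and 379.8 (1.41 ± 0.07, limma, adjusted p = 0.00192), and at -9.4 kb from 114 and 99.7 to 236 and 230.5 (1.18 ± 0.09, adjusted p = 0.0045). The last 3 calls held when any 1 list was left out. That over the 3′ end held without either untreated list, and the IL-4 lists, which alone had peaks there, could not be left out. The Fcgr2b region at +22.7 kb did not share the change (299 and 302, then 263 and 255).

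Smaller H3K27Ac changes were called at Fcgr3 and Fcgr4. At Fcgr3 +14.7 kb the score went from 149 and 135 to 219.5 and 216 (0.67 ± 0.08, limma, adjusted p = 0.00993), and in intron 1 from 622 and 617 to 732 and 696 (0.26 ± 0.06, adjusted p = 0.0489). At Fcgr4 the -20.4 kb and +19.3 kb regions were higher (0.47 and 0.38), and the region over the start site fell from 226 and 209.9 to 165 and 167 (-0.34 ± 0.07, limma, adjusted p = 0.0296). The Fcgr3 intron 1 call and the calls at Fcgr4 +0.3 and +19.3 kb were lost whichever list was left out, and those at Fcgr3 +14.7 kb without untreated replicate 2 and at Fcgr4 -20.4 kb without either untreated list or without IL-4 replicate 1. The 2 Fcgr1 regions, over the promoter (595 and 571, then 534 and 508) and at -7.3 kb (578 and 539.5, then 518 and 502), were not called.

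The p300 acetyltransferase, which deposits H3K27Ac, was mapped to ask where coactivator binding changed. It was called higher at 3 of 33 tested regions of these genes and lower at none, 9.09%, against 13.1% of all 67229 regions, so the share did not exceed the background. The median change was 0.19, against 0.22 over all regions. At Fcgr3 +12.5 kb there was none in both untreated lists and 118 and 114 with IL-4 (limma, adjusted p = 0.00763, or 0.0514 without centring). It was tested only because of the IL-4 lists, neither of which could be left out. At Fcgr2b -11.0 kb p300 scored 6.37 and 34.1 without IL-4 against 191 and 192 with it (3.03 ± 0.35, limma, adjusted p = 0.0249), and over the Fcgr2b 3′ end 27.4 and 76.5 against 227 and 202 (1.55 ± 0.22, adjusted p = 0.0358). The groups do not overlap at these sites. The untreated lists differed widely between themselves throughout, and both Fcgr2b calls were lost without untreated replicate 1 or without either IL-4 list, although 11 regions of these genes were called without untreated replicate 1. Without centring no p300 region of these genes was called. Within Fcgr2b, intron 3 (+8.3 kb) had 47.5 and 121 against 298 and 275 and intron 1 (+2.9 kb) none and 38.2 against 152 and 144, separated but not called (adjusted p = 0.063 and 0.222).

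Sites with lower p300 scores were also present, although none was called. At Fcgr2b -1.2 kb p300 scored 23 and 55.2 without IL-4 against 17.5 and 22.6 with it (limma, adjusted p = 0.0594). At Fcgr1 -8.8 kb they were 23.4 and 66.7 against 31 and 26.7 (adjusted p = 0.0697). The raw scores overlapped between groups at the Fcgr1 site, and at the Fcgr2b site the lower untreated and the higher IL-4 list differed by little. The stronger Fcgr1 site at -7.0 kb had 147 and 228 against 218 and 234, and the Fcer1g promoter 35 and 70.9 against 63.6 and 83.

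PU.1, the lineage-determining factor of macrophages, had 41 tested regions at these genes, the most of any antibody. None was called at the adjusted threshold (limma, 0% of 67996 regions), and 9 reached an unadjusted p of 0.05, 7 higher and 2 lower, against 12.6% of all regions. Of the 7, 5 belonged to Fcgr2b, whose 15 tested regions had a median change of 1.33. The Fcgr2b sum was 289.8 and 227 in untreated and 603 and 578 in IL-4-treated cells, and that of Fcgr3 99.6 and 99.3 against 149.8 and 182. Both pairs are separated, but PU.1 sums were not tested, and the share of all genes separated in this way was not determined. At Fcgr3 +12.5 kb, where p300 appeared, PU.1 had none in untreated cells and 20.9 and 25 with IL-4 (limma, adjusted p = 0.172). At Fcgr2b -11.0 kb it had 3.42 and 10.8 against 26.4 and 85.1 (adjusted p = 0.454), the IL-4 replicates lying far apart. At Fcgr1 -8.9 kb the weak PU.1 peaks of untreated cells (6.54 and 3.97) were absent with IL-4 (adjusted p = 0.172). The strongest PU.1 peaks were at the Fcer1g promoter (146 and 118 against 121 and 141), Fcgr1 -7.1 kb (121 and 92.6 against 120.5 and 110.4) and Fcgr4 -12.4 kb (121 and 87.6 against 134 and 139), with changes between -0.34 and 0.07. The raw groups were separate at Fcgr4 -12.4 kb and overlapped at the other two.

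HDAC1, HDAC2 and HDAC3 remove acetyl groups from histones. None of their 17, 18 and 14 tested regions at these genes was called (limma, 0% of all regions for each antibody). At an unadjusted p of 0.05 the counts were 3, 4 and 3, where 15.0%, 13.9% and 20.0% of all regions were. They were 1 higher and 2 lower for HDAC1, 3 and 1 for HDAC2 and 3 and 0 for HDAC3, and both lower HDAC1 regions belonged to Fcgr2b. The Fcgr2b -11.0 kb site was among the higher regions for each antibody. HDAC1 had none and 3.32 in untreated cells and 9.97 and 6.15 with IL-4. HDAC2 had none in both untreated lists and 21.6 and 8.02 with IL-4, and HDAC3 none against 11.3 and 9.5 (limma, adjusted p = 0.156 and 0.0598). Peaks were thus listed there in all 6 HDAC lists of IL-4-treated cells and in 1 of 6 of untreated cells. The share of all regions with such a pattern was not determined. At Fcgr3 +12.5 kb HDAC2 had none in untreated cells and 6.45 and 6.11 with IL-4. At the Fcgr1 promoter HDAC1 had 25.1 and 13.8 against 8.55 and 7.93, and HDAC3 had 14.9 and 14.5 against 27.2 and 22.7, neither called.

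RNAPII-pS5, the form of RNA polymerase II linked to initiation and also found at active enhancers, was called higher at 3 and lower at 2 of 27 tested regions, where 5.55% of 32095 regions were called. All 5 had peaks in 1 group alone and were tested only through it, their changes depend on the floor, and with a peak required in every list the count was 0. All 3 higher regions belonged to Fcgr2b and had none in untreated cells: at -10.9 kb the IL-4 lists scored 14.4 and 11, at +1.9 kb in intron 1 19.2 and 16.5, and at +17.3 kb past the 3′ end 15.1 and 13.3 (limma, adjusted p = 0.0367 for each). The start-site region itself did not separate (61.8 and 33.7 against 55 and 55.3). The lower regions were at Fcgr4 -1.1 kb (7.46 and 4.29, then none, adjusted p = 0.0431) and Fcgr1 -8.4 kb (7.77 and 7.04, then none, adjusted p = 0.0382), next to Fcgr1 -7.0 kb, which was level (47 and 32.4 against 42.5 and 35.5). No gene sum was called (1.66% of 13481 genes were; Fcgr2b alone had an unadjusted p under 0.05, as did 14.9% of genes): Fcgr2b had 136 and 70.9 against 200.4 and 169.7 (limma, adjusted p = 0.197) and Fcgr1 138 and 90.8 against 77.2 and 82.7 (adjusted p = 0.339). None of the 5 region calls held without centring or in the 2 leave-one-out fits that could be made for each, and joining peaks up to 500 bp apart merged the Fcgr1 -8.4 kb region with its neighbor and gave 0.10.

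In the 1 hr RNAPII-pS2 lists, which follow elongating polymerase, Fcgr2b summed to 159 and 163 in the libraries labeled untreated and to 27.8 and 25.2 in those labeled IL-4 (limma, adjusted p = 0.0776). No sum of the 5 was called (0% of 10617 genes), and 1 had an unadjusted p under 0.05, as did 16.6% of genes. Of 19 tested regions none was called (0% of 18314), and at an unadjusted p of 0.05, reached by 21.8% of all regions, 8 were lower and 1 higher in the libraries labeled IL-4, with 6 of the lower at Fcgr2b. Over the region past its 3′ end (+17.5 kb) the scores were 51.1 and 54.7 against 12.4 and 14.2, and at -9.7 kb 20.6 and 21.5 against none. Fcgr1, Fcgr3 and Fcgr4 had sums of 43.1 and 53.1, 65.4 and 50.7, and 38.5 and 50.9 in the libraries labeled untreated, and of 60.4 and 60.5, 44.2 and 44.8, and 36.5 and 35.4 in those labeled IL-4. Fcgr2b had the largest difference of the 5 between the labeled groups.

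The second experiment asked how 24 hr of IL-4 changed binding and the response to LPS. The Fcgr2b -11.0 kb site had the highest p65 scores of all regions of these genes, and the plot of peaks over it shows each list of the antibodies that had peaks there, other than the 1 hr RNAPII-pS2 lists.

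**Figure D2:**
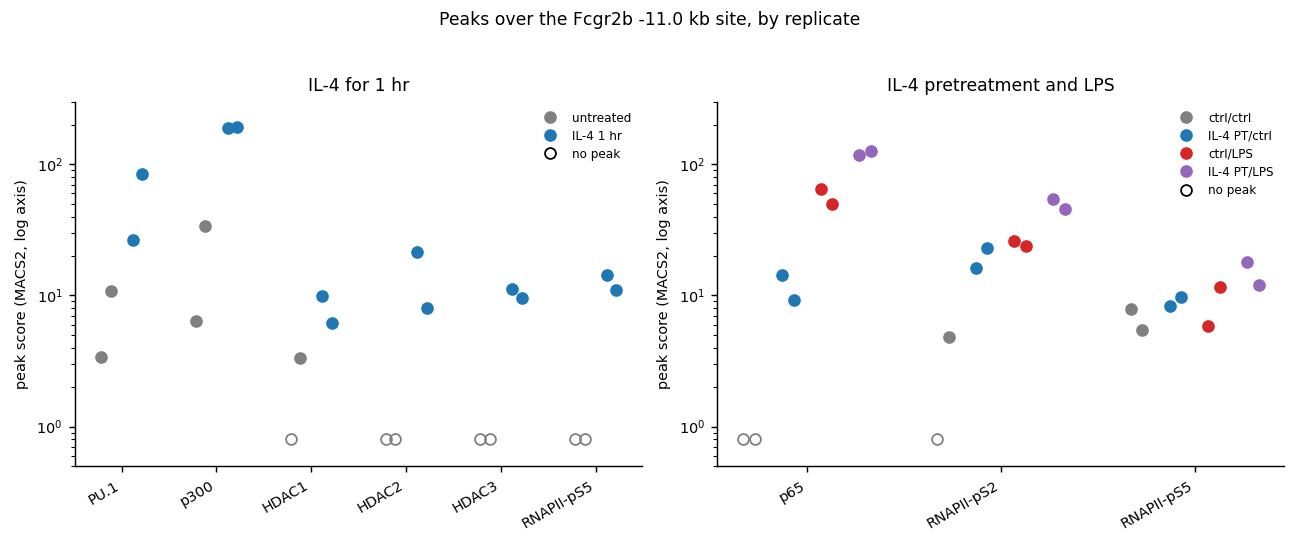
Peak scores (log axis) over the Fcgr2b -11.0 kb site for each antibody with peaks there, by replicate, in the 1 hr experiment (left) and the pretreatment experiment (right); open circles mark lists without a peak and have no score. p65 has no peak in ctrl/ctrl and 117 and 127 in IL-4 PT/LPS cells, and the 1 hr RNAPII-pS2 lists are left out because their labels conflict with their content.

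At Fcgr2b -11.0 kb p65 had none in ctrl/ctrl, 14.3 and 9.18 in IL-4 PT/ctrl, 65.4 and 49.8 in ctrl/LPS and 117 and 127 in IL-4 PT/LPS cells. The 4 groups did not overlap. Against ctrl/ctrl, p65 was higher with IL-4 PT alone (3.82 ± 0.24, limma, adjusted p = 0.0014) and with LPS alone (4.90 ± 0.24, adjusted p = 1.35e-04), where these log2 changes depend on the floor score given to missing peaks. Both calls held without any 1 list. With LPS, IL-4 PT gave a log2 change of 0.83 ± 0.24 (adjusted p = 0.0575), which missed the threshold, and the LPS response was smaller on the log2 scale after IL-4 PT (-2.99 ± 0.34, adjusted p = 0.00421). A wider RNAPII-pS2 region over the site (-10.2 kb) had none and 4.85, 16.2 and 22.9, 25.9 and 24, and 54.2 and 45.3 in the same order, higher with LPS (3.08 ± 0.61, limma, adjusted p = 0.0135) and with IL-4 PT (2.95 ± 0.61, adjusted p = 0.0215). These calls were lost without either list of the treated group. RNAPII-pS5 over it was between 5.5 and 17.9 in the 8 lists and was not called. The -11.0 kb site had no H3K27Ac region in any of the 4 lists, the nearest lying at -9.4 kb.

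After LPS alone, p65 was called higher at 8 and lower at 1 of 20 tested regions of these genes, where 32.6% of 37564 regions were called; without centring the split was 12 higher and 0 lower. The median change was 1.13, against 0.70 over all regions. Besides Fcgr2b -11.0 kb, p65 peaks absent from both ctrl/ctrl lists were at Fcgr2b -1.2 kb (14 and 18.8 with LPS) and +2.9 kb (6.27 and 5.47), Fcgr1 -8.8 kb (26.8 and 13.9), Fcgr4 -12.4 kb (9.4 and 13.5), Fcgr3 +1.9 kb (9.84 and 9.41) and Fcer1g +3.3 kb (13.5 and 11.3), with adjusted p from 0.0011 to 0.0192 (limma). Of these, the Fcgr3 call was lost without any 1 of the ctrl/ctrl or ctrl/LPS lists, and the others held without any 1 list. The Fcgr1 -6.9 kb site already had p65 without LPS (9.23 and 14.7) and reached 42.6 and 48.7 with it (0.92 ± 0.26, adjusted p = 0.046); the call was kept only without ctrl/ctrl replicate 2, while without centring the change was 1.97 (adjusted p = 0.00226). The region called lower, the Fcgr3 promoter, had 19.6 and 27.4 in ctrl/ctrl and 13.2 and 21.2 in ctrl/LPS cells, which overlap, and its change of -1.52 was -0.47 without centring (adjusted p = 0.405); the call was also lost without ctrl/ctrl replicate 2 or ctrl/LPS replicate 1.

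**Figure D3:**
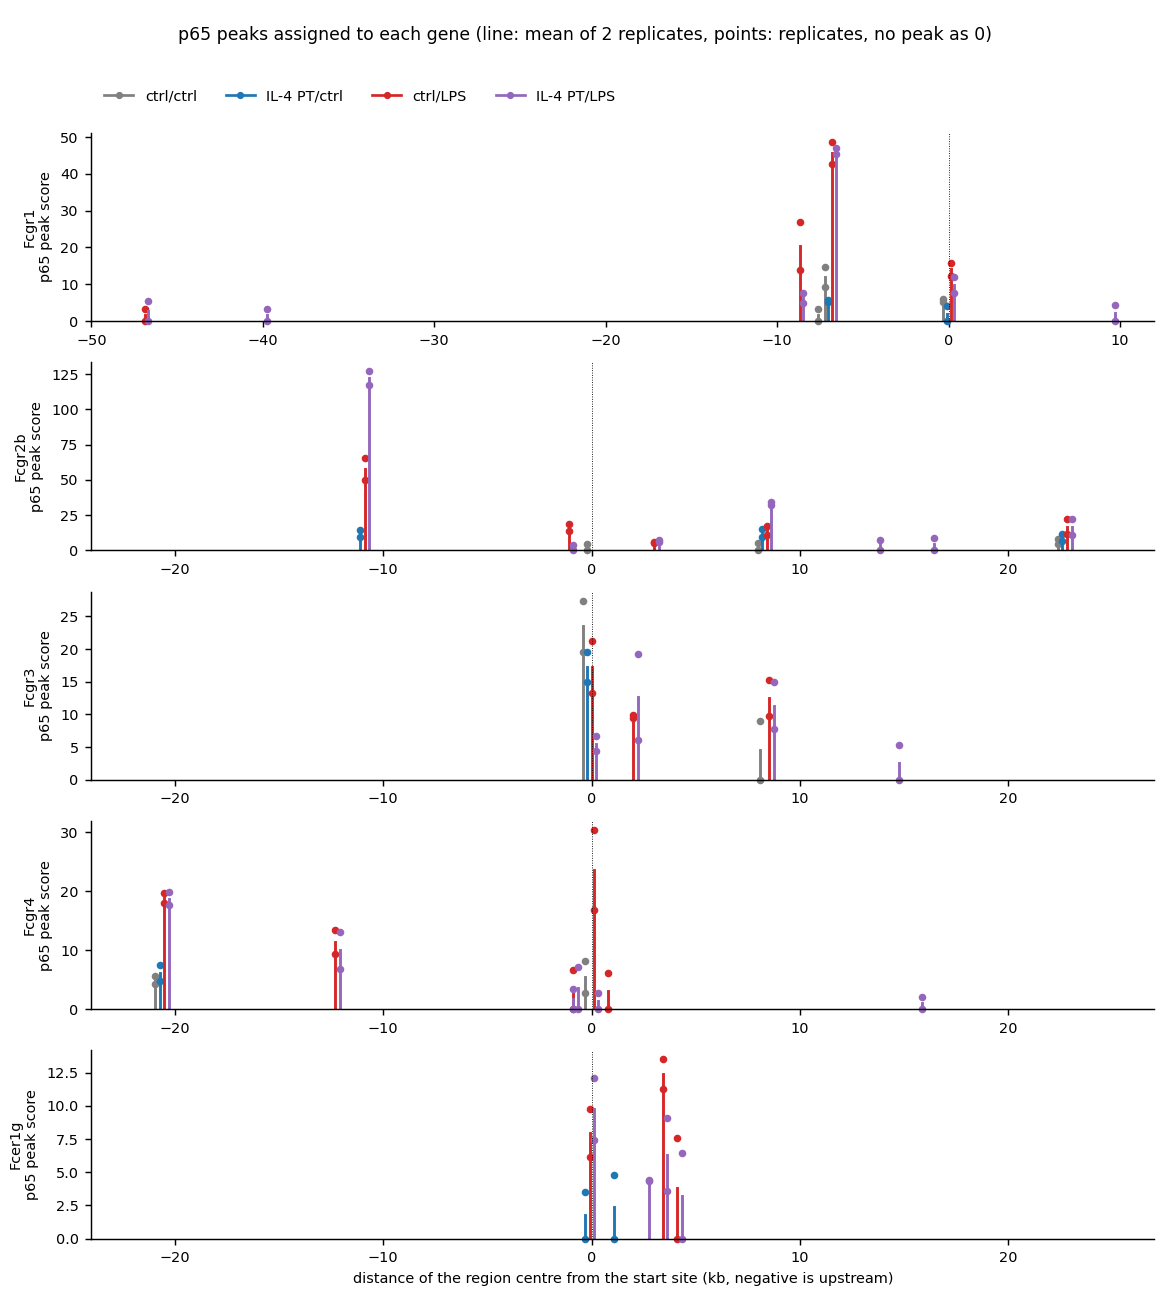
p65 peak scores by distance from each gene's start site (kb, negative upstream) in the 4 conditions; lines are means of 2 replicates, points the replicates, and a missing peak is drawn as 0. The Fcgr2b -11.0 kb site reaches 117 and 127 in IL-4 PT/LPS cells, and at the Fcgr4 start site and Fcgr1 -8.8 kb the ctrl/LPS points lie above those of IL-4 PT/LPS.

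The p65 peaks seen under LPS were then compared with and without IL-4 PT. Of 20 regions, 4 were lower and 1 higher in IL-4 PT/LPS than in ctrl/LPS cells, where 29.2% of all regions were called, so the count did not exceed the background; without centring 4 were lower and 2 higher. At the Fcgr4 start site the scores were 2.7 and 8.23 in ctrl/ctrl, none in IL-4 PT/ctrl, 16.8 and 30.4 in ctrl/LPS and 2.74 and none in IL-4 PT/LPS cells (-3.42 ± 0.57 under LPS, limma, adjusted p = 0.00916). At Fcgr1 -8.8 kb, where no peak was called without LPS, 26.8 and 13.9 became 5.01 and 7.56 (-1.92 ± 0.36, adjusted p = 0.0131). At the Fcgr3 promoter 13.2 and 21.2 became 4.36 and 6.71 (-1.90 ± 0.34, adjusted p = 0.0114). These 3 calls were lost without either IL-4 PT/LPS list. At Fcgr2b -1.2 kb 14 and 18.8 became none and 4.17 (-2.68 ± 0.31, limma, adjusted p = 0.00257), which held without any 1 list. The higher region was Fcer1g +2.4 kb, with peaks of 4.4 and 4.37 in IL-4 PT/LPS cells alone.

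The neighboring Fcgr1 -6.9 kb site did not share the decrease at -8.8 kb: p65 was 42.6 and 48.7 in ctrl/LPS and 47.1 and 45.3 in IL-4 PT/LPS cells (-0.25 ± 0.26, limma, adjusted p = 0.591). Without LPS it was 9.23 and 14.7 in ctrl/ctrl and 5.21 and 5.82 in IL-4 PT/ctrl cells (adjusted p = 0.21). IL-4 PT without LPS changed p65 at 1 of 20 regions, Fcgr2b -11.0 kb, against 5.75% of all regions. Only 10 of the 20 had a peak in either group compared, and the rest could not be called. Such regions also count among all regions. The difference between the LPS responses was called at 4 regions, 3 lower and 1 higher, 20.0%, against 23.0% of all regions, or at 1 lower and 1 higher without centring. As summed scores, p65 at Fcgr2b was 4.68 and 17.2, 41.4 and 25.1, 115 and 107, and 189 and 189 in the order of conditions given for Fcgr2b -11.0 kb, and it alone among the 5 was higher in both IL-4 PT/LPS lists than in both ctrl/LPS lists. At Fcgr1 the sums were 17.7 and 20.6, 5.21 and 9.81, 85.2 and 78.1, and 59.6 and 78.

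**Figure D4:**
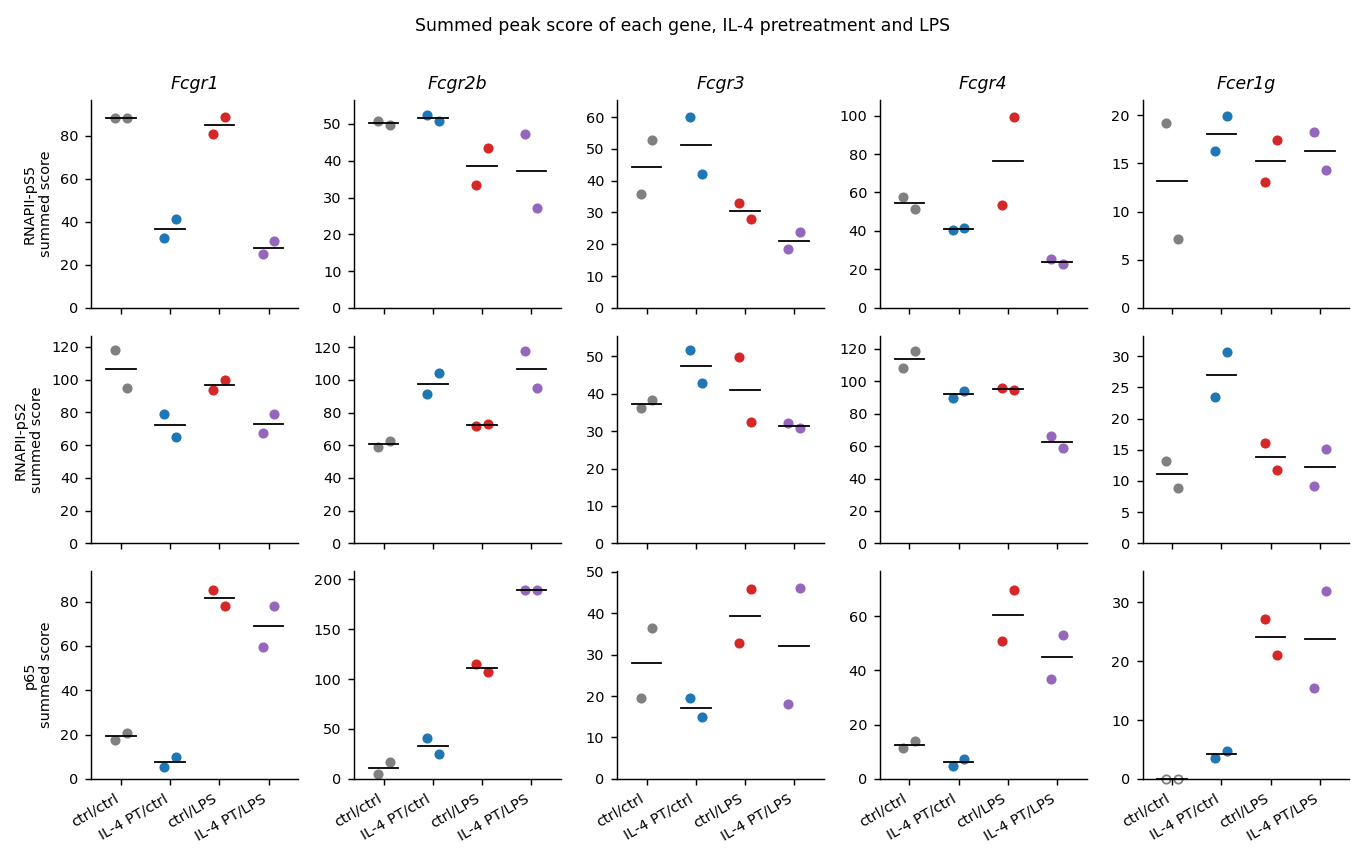
Summed peak score of each gene (columns) for RNAPII-pS5, RNAPII-pS2 and p65 (rows) in the 4 conditions of the pretreatment experiment; points are replicates, lines their means, and open circles at 0 lists without a peak. RNAPII-pS5 at Fcgr1 is 88.3 and 88.3 in ctrl/ctrl and 25.1 to 41.1 in the 4 lists with IL-4 PT.

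For RNAPII-pS5, the Fcgr1 sum was 88.3 and 88.3 in ctrl/ctrl, 32.5 and 41.1 in IL-4 PT/ctrl, 80.7 and 88.6 in ctrl/LPS and 25.1 and 30.8 in IL-4 PT/LPS cells. Every list with IL-4 PT was below every list without it. The change with IL-4 PT was -1.35 ± 0.26 without LPS (limma, adjusted p = 0.0327; 8.04% of 12477 genes called) and -1.89 ± 0.26 with LPS (adjusted p = 0.01; 11.6% called), and the LPS response did not differ detectably between them (-0.54 ± 0.37, adjusted p = 0.432; 7.00% called). The call without LPS was lost when any 1 of the 8 lists was left out. Fcgr4 was 57.7 and 51.2, 40.6 and 41.7, 53.5 and 99, and 25.2 and 22.7, lower with IL-4 PT under LPS (-1.89 ± 0.33, limma, adjusted p = 0.0196), a call lost without either IL-4 PT/LPS list. LPS alone changed no sum of the 5, also at an unadjusted p of 0.05 (27.1% of genes called, and 39.6% at the unadjusted threshold).

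Fcgr2b, the inhibitory receptor, had RNAPII-pS5 sums of 50.8 and 49.6, 52.5 and 50.8, 33.4 and 43.6, and 47.3 and 27.2, with no call. Fcgr3 had 35.7 and 52.9, 60.1 and 42.1, 33 and 27.8, and 18.4 and 23.8 (under LPS, limma, adjusted p = 0.231). Fcer1g stayed between 7.14 and 19.9 in all 8 lists without a call.

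Across regions, RNAPII-pS5 was called at 3 of 22 with LPS (2 higher, 1 lower), 13.6%, against 30.5% of 27609 regions, and at 3 with IL-4 PT, all lower, 13.6%, against 16.5%. Under LPS, 6 were lower with IL-4 PT and none higher, 27.3%, against 14.5%, with a median of -0.98, against 0.00 for all regions. From the Fcgr1 start site into intron 2 (+0.7 kb) the scores were 20.7 and 25.8 in ctrl/ctrl, 11.3 and 7.22 in IL-4 PT/ctrl, 24.8 and 24.1 in ctrl/LPS and 5.05 and 6.41 in IL-4 PT/LPS cells. They were lower with IL-4 PT in both settings (-1.37 ± 0.31, limma, adjusted p = 0.0369, and -2.29 ± 0.31, adjusted p = 0.00689), of which the first was kept only without IL-4 PT/ctrl replicate 1 and the second was lost without IL-4 PT/LPS replicate 1. In intron 3 (+6.4 kb) the ctrl/LPS lists had 14 and 15.6 and the IL-4 PT/LPS lists none and 2.67 (-3.08 ± 0.63, adjusted p = 0.0288), a call kept only without an IL-4 PT/ctrl list.

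The Fcgr1 upstream region (-7.6 kb, chr3:96300042-96303029), which spans both p65 sites and the amplicons of the study's enhancer primers at -8.1 and -9.0 kb, scored 20.4 and 23.7, 10.3 and 15.2, 41.9 and 48.9, and 20.0 and 21.7. RNAPII-pS5 there rose with LPS (1.22 ± 0.25, limma, adjusted p = 0.0165) and was lower with IL-4 PT under LPS (-1.31 ± 0.25, adjusted p = 0.0239), and the LPS responses with and without IL-4 PT did not differ detectably (-0.48 ± 0.36, adjusted p = 0.452). Each of these 2 calls was lost in 4 of 8 leave-one-out fits, those without a list of the groups compared. RNAPII-pS2 over it was 54.4 and 49, 38.2 and 32.9, 39.1 and 41.3, and 40.7 and 48.7, with no call. For its Fcgr1 enhancer the paper reports that IL-4 pretreatment partly lowered the p65 binding induced by LPS. It also reports that this reduction was lost in cells without STAT6. Over the 3′ end of Fcgr1 (+11.3 kb), RNAPII-pS5 scored 17.8 and 18.2 in ctrl/ctrl and 6.85 and 5.57 in IL-4 PT/ctrl cells and had no peak in the 4 lists with LPS, and RNAPII-pS2 likewise 16.3 and 8.48, then 7.25 and 6.09, then none.

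At Fcgr4 the RNAPII-pS5 region at +12.3 kb, past its 3′ end, scored 13.8 and 10.4, 10.9 and 5.06, 14.8 and 28.3, and none in both IL-4 PT/LPS lists (-3.98 ± 0.47 under LPS, limma, adjusted p = 0.00463). RNAPII-pS2 there was 20.9 and 13.8 in ctrl/LPS and 5.12 and 3.74 in IL-4 PT/LPS cells (-1.90 ± 0.38, adjusted p = 0.0244), lost without any 1 list of these groups. Weak RNAPII-pS5 peaks at Fcgr4 -0.6 kb were present in the ctrl/LPS lists alone (3.62 and 5.68). At Fcgr3 +9.7 kb, past its 3′ end, RNAPII-pS5 was 8.85 and 9.16, 10.9 and 10.9, 9.79 and 6.15, and none (-2.57 ± 0.29 under LPS, limma, adjusted p = 0.00374). The calls for RNAPII-pS5 at Fcgr4 +12.3 kb and Fcgr3 +9.7 kb under LPS held without any 1 list. The call at Fcgr4 -0.6 kb under LPS held in 6 fits, none of which left out a ctrl/LPS list. At Fcgr2b +22.7 kb RNAPII-pS5 was absent from the IL-4 PT/ctrl lists alone (8.61 and 6.79 in ctrl/ctrl). The difference of the LPS responses was called at 1 higher and 3 lower regions, 18.2%, against 17.9%, or at 2 higher and 3 lower without centring.

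For RNAPII-pS2 no sum was called in any of the 4 comparisons (limma; at an unadjusted p of 0.05, 0, 2, 1 and 1 of the 5, against 40.0%, 30.2%, 23.4% and 23.0% of genes), in which 26.7% (LPS), 15.2% (IL-4 PT), 7.90% (IL-4 PT under LPS) and 6.78% (difference) of 13663 genes were. Fcgr2b had 59 and 62.4, 91.5 and 104, 71.6 and 73, and 118 and 95.2, so that both lists with IL-4 PT lay above both without it, with and without LPS (limma, adjusted p = 0.0679 and 0.225). Fcgr4 had 108 and 119, 89.9 and 94, 96 and 94.4, and 66.4 and 58.6 (under LPS, adjusted p = 0.122), and Fcgr1 118 and 94.9, 79 and 64.9, 93.6 and 100.0, and 67.4 and 78.8. Fcer1g was 13.2 and 8.93 in ctrl/ctrl and 23.4 and 30.6 in IL-4 PT/ctrl cells (adjusted p = 0.0515).

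By region, RNAPII-pS2 was called at 3 of 25 with LPS, 2 higher and 1 lower (12.0%, against 32.6% of 39261 regions), at 6 with IL-4 PT, 3 higher and 3 lower (24.0%, against 22.2%), at 5 with IL-4 PT under LPS, all lower (20.0%, against 17.1%), and at 2, both lower, for the difference (8.00%, against 20.7%). Fcgr1 supplied 3 of the lower regions in each IL-4 PT comparison: intron 3 (+6.4 kb), the promoter region (+0.7 kb) and -39.8 kb. In intron 3 the scores were 8.09 and 8.83, 3.19 and none, 17.7 and 17.7, and none, lower under LPS by a log2 change of -3.54 ± 0.45 (limma, adjusted p = 0.00449), which held without any 1 list, and by -1.97 ± 0.45 without LPS (adjusted p = 0.0312), kept only without an IL-4 PT/ctrl list. Over the promoter they were 26.1 and 24.8, 11 and 10.2, 17.9 and 16.7, and 8.3 and 4.72 (-1.22 ± 0.30, adjusted p = 0.0374, and -1.41 ± 0.30, adjusted p = 0.028), calls that were lost in 6 and 5 of 8 leave-one-out fits. At Fcgr3 +11.7 kb, within 1 kb of the +12.5 kb site, peaks were present in IL-4 PT/ctrl cells alone (8.04 and 6.23, limma, adjusted p = 0.00117 against ctrl/ctrl). In Fcgr3 intron 3 (+4.0 kb) there were peaks in IL-4 PT/ctrl (2.9 and 4.47) and ctrl/LPS cells (5.48 and 4.48) and none in the other groups.

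The other genes of Fc receptor signaling were read from a list of 16. With 1 hr of IL-4, H3K27Ac sums were higher for 7 (Fgr, Btk, Lcp2, Pik3cd, Rac2, Inpp5d and Ptpn6) and lower for 4 (Syk, Lyn, Plcg2 and Vav3), where 32.9% of all 13035 genes were called. The median change was 0.10, against -0.01 for all genes. Ptpn6, which encodes the phosphatase SHP-1, had none in untreated cells and 496 and 474 with IL-4, and Pik3cd, a PI3-kinase catalytic subunit, went from 77.4 and 73.7 to 126 and 125 (0.74 ± 0.05, limma, adjusted p = 0.00605). The kinase gene Lyn fell from 374 and 372 to 279.8 and 292 (-0.38 ± 0.05, limma, adjusted p = 0.0189). The Fcgr2b change of 1.20 was larger than that of any of these genes measured in all 4 lists.

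With LPS, RNAPII-pS5 sums were higher for Rac2 (47.3 and 38.3 in ctrl/ctrl, 64.1 and 63.5 in ctrl/LPS, 0.91 ± 0.25, limma, adjusted p = 0.0406) and lower for Plcg2, Inpp5d and Tyrobp, of 15 tested. Of all 12477 genes 27.1% were called, so the count did not exceed the background. Inpp5d had 20.7 and 17.7 in ctrl/ctrl and none in ctrl/LPS cells (adjusted p = 0.00397), and Tyrobp, which encodes the adaptor DAP12, 44 and 38 against 13.8 and 13.2 (-1.28 ± 0.33, adjusted p = 0.0361). The ctrl/LPS lists of RNAPII-pS5 had the fewest peaks of their set (14476 and 15349), and the median change over all genes was -0.41, so these changes are relative to that shift. The RNAPII-pS2 sum of Fcgrt, the neonatal Fc receptor gene, was lower with LPS (12.1 and 4.16, then none, limma, adjusted p = 0.0161). It was the only call among the 16 tested, where 26.7% of all 13663 genes were called. In the other comparisons of gene sums no gene of the list was called (limma), and between 0 and 4 had an unadjusted p under 0.05. The share of all genes with such a p was 21.5% for RNAPII-pS5 with IL-4 PT, 26.7% with IL-4 PT under LPS and 22.8% for the difference of the LPS responses, and the other shares are given above.

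Over the 16 RNAPII lists of the pretreatment experiment, the genes with the most similar profile were sought among 8390 with a peak in at least 12 of them. For Fcgr1 they were Elp5, Niacr1 and Serpinb11 (Pearson r = 0.95 each), and for Fcgr4 Cfdp1 (0.95), Niacr1 (0.91) and Nckap1 (0.89). Fcgr3 was nearest to Pisd-ps1 (0.88), Fuca1 (0.87) and Map3k8 (0.85), Fcgr2b to Pdap1 (0.85), Nop14 (0.82) and 2310003H01Rik (0.81), and Fcer1g to Nr2c1 (0.81), 1810043H04Rik (0.77) and Eif5a (0.75). These values are descriptive, since the lists come from 2 antibodies and 4 conditions and the highest of 8390 were taken.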

How the data were processed

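Peak lists of 56 ChIP-seq samples (28 groups of 2 replicates) were used. Per the labels and the study's methods, the authors aligned reads to mm10 with BWA (0.7.10), used SAMtools (0.1.19), called peaks in each sample with MACS2 (2.0.10), or HOMER (4.2) for H3K27Ac, removed blacklisted regions and annotated each peak with the nearest gene. No input control is given in the sources used here. The deposited MACS2 score was read as -log10 of a p or q value, and the deposited HOMER score as normalized tag signal. The lists hold no reads, so the depth is unknown.

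Overlapping peaks of the lists of 1 antibody and experiment were merged, and a region took the highest score per list. Scores were put on the log2 scale and centred on the regions with a peak in all lists, and a missing peak then received the lowest score of the set. This order was chosen after the data had been seen, and the reverse order is an alternative. Regions with a peak in at least 2 lists were tested with limma 3.58.1 (R 4.3.3; groups only, two-sided) and adjusted over all regions by Benjamini-Hochberg (threshold 0.05). Sums over all peaks of a gene were tested in the same way for RNAPII and H3K27Ac. A change against a group without peaks depends on the floor, and its SE is too small because such a group has no spread. The replicates are described as biologically independent, without naming separate animals, and p-values measure the spread between these samples. The code was tested on scores simulated from regions with a peak in all lists, so changes against a group without peaks were largely outside that test.

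The genes and lists were chosen with earlier results of these data known. Named by rule were the region at each start site, the strongest per gene and antibody, regions called (up to 5 per gene and antibody) and the Fcgr1 upstream enhancer. Other regions were named after their values were seen. For the Fc receptor signaling list the largest changes are named, except for 1 whose values are not reported here, and for likeness the 3 genes with the highest Pearson correlation. Promoters are from RefSeq (GRCm38.p6, the coordinates of mm10; all 5 genes matched), and site sequences from the same assembly. Alternatives were no centring, another floor, other filters on peaks, joined peaks, no intergenic peaks, a replicate block and leaving out each list.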

Additional observations from a re-analysis of the deposited data

Results flagged for a closer look

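At 10 regions the LPS response differed between cells with and without IL-4 PT by the interaction term of the limma fit (adjusted p of at most 0.05). By antibody these are 20.0% of tested p65, 18.2% of RNAPII-pS5 and 8.00% of RNAPII-pS2 regions of these genes. Over all regions the shares were 23.0%, 17.9% and 20.7%, so the counts lay near or below the background. Values are the LPS log2 change after IL-4 PT minus that without it. For p65 it was -2.99 at Fcgr2b -11.0 kb (adjusted p = 0.00421), where IL-4 PT alone had already given a peak, -2.68 at Fcgr2b -1.2 kb (0.0115), -1.92 at Fcgr1 -8.8 kb (0.0499) and 0.93 at Fcer1g +2.4 kb (0.0211). For RNAPII-pS5 it was -1.80 at Fcgr4 -0.6 kb (0.0199), -3.27 at Fcgr4 +12.3 kb (0.0257), -2.84 at Fcgr3 +9.7 kb (0.00944) and 1.56 at Fcgr1 +11.3 kb (0.0175), the last where both LPS groups had no peak. For RNAPII-pS2 it was -2.46 at Fcgr3 +11.7 kb (0.00514) and -3.19 at Fcgr3 +4.0 kb (0.00302). In each of the 10 at least 1 group had no peak in both lists, so size and call depend on the floor. Where both groups without LPS, or both with it, had no peak, the term only restates 1 other comparison. These are the p65 regions other than Fcgr2b -11.0 kb, RNAPII-pS5 at Fcgr4 -0.6 and Fcgr1 +11.3 kb, and RNAPII-pS2 at Fcgr3 +11.7 kb. With a floor 4 times as high no p65 difference was called, and with a peak required in every list none of the 10 was tested. The 3 at Fcgr3 and that at Fcgr2b -1.2 kb were called in every leave-one-out fit that could be made, that at Fcgr2b -11.0 kb was lost only without IL-4 PT/LPS replicate 1, and each of the other 5 was lost in 4 or 6 fits.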

How the results depend on the processing

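Of 72 called changes at these genes, 339 of 476 leave-one-out refits and 404 of 511 refits under other settings kept direction and threshold, and 1 reversed (RNAPII-pS5 at Fcgr1 -8.4 kb with peaks up to 500 bp apart joined, 0.10). Refits in which a region was no longer tested are not counted, so the kept shares leave such losses out. With a peak required in every list only 24 of the 72 changes were tested, and with the upper 50% of peaks 55. Counts of calls are given as the reported value and then the alternative, for regions unless sums are named, with "difference" for that between LPS responses.

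Without centring, RNAPII-pS5 at 1 hr went from 5 to 0, p300 from 3 to 0 and the p65 difference from 4 to 2. With a floor 4 times as high, RNAPII-pS5 at 1 hr went from 5 to 2, p300 from 3 to 5, RNAPII-pS5 with IL-4 PT from 3 to 1, RNAPII-pS2 with IL-4 PT under LPS from 5 to 3 and its difference from 2 to 1, p65 with LPS from 9 to 4, with IL-4 PT under LPS from 5 to 2 and its difference from 4 to 0. RNAPII-pS2 sums went from 0 to 1, 2 and 1 for LPS, IL-4 PT and IL-4 PT under LPS. With a peak required in every list, RNAPII-pS5 at 1 hr went from 5 to 0, RNAPII-pS2 at 1 hr from 0 to 2 and p300 from 3 to 5. In the pretreatment experiment (LPS, IL-4 PT, IL-4 PT under LPS, difference), the counts became 1, 1, unchanged within 1.5 times and 0 for RNAPII-pS5, 0, 1, 2 and 0 for RNAPII-pS2 and 3, 0, 1 and 0 for p65, and RNAPII-pS2 sums with IL-4 PT went from 0 to 1. With no filter RNAPII-pS5 at 1 hr had 0, and with joined peaks 1, as had the RNAPII-pS2 difference. With the upper 50% of peaks, RNAPII-pS5 at 1 hr had 0, p300 7, the RNAPII-pS5 difference 2, RNAPII-pS2 6 with LPS and 3 with IL-4 PT under LPS, p65 3 with IL-4 PT and 1 for the difference, and sums 1 (RNAPII-pS2 at 1 hr), 2 (H3K27Ac) and 1 (RNAPII-pS2 with IL-4 PT). Without intergenic peaks, sums gave 2 for H3K27Ac, 1 for RNAPII-pS5 with LPS and 1 for RNAPII-pS2 with IL-4 PT under LPS. At an unadjusted p of 0.05, regions at 1 hr numbered 10 (RNAPII-pS5), 9 (RNAPII-pS2), 9 (PU.1), 9 (p300), 3 (HDAC1), 4 (HDAC2) and 3 (HDAC3), and sums 1, 1 and 2 (RNAPII-pS5, RNAPII-pS2, H3K27Ac). In the pretreatment experiment they numbered 7 (IL-4 PT), 12 (IL-4 PT under LPS) and 8 (difference) for RNAPII-pS5, 9 (LPS) and 5 (difference) for RNAPII-pS2 and 4 (IL-4 PT) for p65, and sums 1 for the RNAPII-pS5 difference and 2, 1 and 1 for RNAPII-pS2 (IL-4 PT, IL-4 PT under LPS, difference).

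The replicate numbers shared only a number: the correlation of equally numbered lists was -0.01 to 0.05 over 26 pairs of groups. With the replicate block, RNAPII-pS5 at 1 hr went from 5 to 0, H3K27Ac from 9 to 5, p300 from 3 to 0, the p65 difference from 4 to 2 and RNAPII-pS5 sums with IL-4 PT from 1 to 0. Moving the floor with the centring, an alternative chosen after seeing the data, ended 3 of the 72 calls.

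When 1 list was left out, calls ranged from 0 to 0 for RNAPII-pS5 at 1 hr, 5 to 6 for H3K27Ac, 0 to 11 for p300 and 0 to 3 for HDAC3. RNAPII-pS5 had 1 to 3 (LPS), 2 to 3 (IL-4 PT), 3 to 6 (IL-4 PT under LPS) and 1 to 3 (difference), RNAPII-pS2 2 to 4, 3 to 5, 3 to 6 and 1 to 4, and p65 6 to 10, 1 to 3, 1 to 6 and 1 to 5 in this order. Sums ranged from 1 to 2 for H3K27Ac, 0 to 1, 0 to 0 and 1 to 2 for RNAPII-pS5 (LPS, IL-4 PT, IL-4 PT under LPS), and 0 to 1 for RNAPII-pS2 with IL-4 PT. In every other case both ends were 0. The causes were not tested. Scores without read counts limit all comparisons of weak peaks, since a missing peak may lie just under the caller's threshold.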
